A study of Mus musculus with 12 samples.

Results

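The genes described here are 8 transcription factors of the red cell and platelet lineages, Gata1, Gata2, Klf1, Tal1, Lmo2, Lyl1, Nfe2 and Zfpm1, chosen by name from the 41214 genes of the count tables. All 8 were present and all 8 passed the low-count filter. They were compared between leukaemic cells of Gfi1-KD mice, homozygous for the KD allele (KD/KD), and leukaemic cells of Gfi1-KI mice, heterozygous for the KI allele (KI/wt). All the mice were C57/BL6 and carried the NUP98-HOXD13 transgene, a fusion oncogene that gives myelodysplasia and acute myeloid leukaemia in mice and that is driven in blood cells by Vav regulatory sequences. RNA was sequenced from 4 libraries, 1 per mouse and 2 mice per genotype, named here KD mouse 1 and 2 and KI mouse 1 and 2. The labels give neither the age nor the sex of the mice nor the organ the cells came from. In mouse lines of these names the altered Gfi1 allele carries human GFI1 coding sequence, so that counts on mouse Gfi1 are no measure of total GFI1.

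GATA2 is the GATA factor of blood stem cells, early progenitors and mast cells. GATA1 takes its place on chromatin as progenitors become red cells or megakaryocytes, with ZFPM1 (FOG1) as its cofactor. TAL1, or its relative LYL1, pairs with an E protein and is joined to GATA factors by the bridging protein LMO2. KLF1 then switches on globin and red cell membrane genes, and NFE2, with a small MAF partner, acts on globin genes and late platelet genes. Lmo2, Lyl1, Nfe2 and Gata2 are also transcribed in immature or maturing myeloid cells, while Klf1 is close to restricted to red cell precursors.

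The promoter windows of 3 factors with lower levels in KD leukaemia, Gata1, Klf1 and Tal1, are shown first, with that of Lyl1, the relative of Tal1, whose level was not lower. Each runs from 250 bases before to 50 bases after a start in RefSeq (GRCm38.p6), 5′ to 3′ on the gene's strand. They lie at chrX:7967861-7968160 (minus strand) for Gata1 and chr8:84901732-84902031 (plus) for Klf1. Those of the first of the 2 Tal1 starts and of Lyl1 lie at chr4:115056176-115056475 (plus) and chr8:84701207-84701506 (plus). The Gata1 window lies inside the span of the gene, 7959260 to 7976663. On the minus strand the 5′ end of that span is 7976663, and no window at that end was examined. Capitals mark GATAA or its reverse TTATC, the core letters of GATA sites, and CACCC or its reverse GGGTG, the core letters of boxes that KLF factors read.
Gata1: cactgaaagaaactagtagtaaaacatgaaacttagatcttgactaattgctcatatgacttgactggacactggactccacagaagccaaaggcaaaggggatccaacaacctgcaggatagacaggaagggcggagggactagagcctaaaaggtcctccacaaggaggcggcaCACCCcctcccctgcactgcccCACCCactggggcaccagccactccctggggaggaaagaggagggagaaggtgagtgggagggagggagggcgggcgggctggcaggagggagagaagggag
Klf1: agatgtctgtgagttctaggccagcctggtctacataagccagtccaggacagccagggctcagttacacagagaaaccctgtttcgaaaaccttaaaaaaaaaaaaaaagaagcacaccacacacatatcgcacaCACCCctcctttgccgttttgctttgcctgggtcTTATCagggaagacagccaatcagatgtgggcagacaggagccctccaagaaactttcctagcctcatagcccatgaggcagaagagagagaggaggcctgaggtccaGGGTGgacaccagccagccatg
Tal1: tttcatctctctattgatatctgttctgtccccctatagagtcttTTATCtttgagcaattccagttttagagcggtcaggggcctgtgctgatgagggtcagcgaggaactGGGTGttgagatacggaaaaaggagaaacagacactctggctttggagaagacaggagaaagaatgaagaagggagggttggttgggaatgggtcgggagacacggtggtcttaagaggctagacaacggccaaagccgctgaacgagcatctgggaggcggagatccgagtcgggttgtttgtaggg
Lyl1: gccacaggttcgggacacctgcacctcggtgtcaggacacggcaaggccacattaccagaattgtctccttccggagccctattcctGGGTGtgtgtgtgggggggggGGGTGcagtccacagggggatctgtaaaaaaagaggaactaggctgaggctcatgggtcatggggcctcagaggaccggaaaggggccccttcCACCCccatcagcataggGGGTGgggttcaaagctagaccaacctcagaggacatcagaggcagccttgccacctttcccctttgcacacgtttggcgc
GATAA, on either strand, occurred once in the Klf1 window, at -80 from the start, once in the first Tal1 window, at -205, and in neither the Gata1 nor the Lyl1 window. It was present in 25.4% of all 32851 promoter windows of this length. CACCC, on either strand, occurred at 2 places in Gata1 and Klf1, 1 in Tal1 and 4 in Lyl1, and in 57.5% of all windows. No marked match overlapped another. RefSeq windows were found for 6 of the 8 factors, with 2 starts each for Tal1 and Gata2. Neither Gata2 window held GATAA, nor did the second Tal1 window or that of Zfpm1. A match describes the letters of the window and is not evidence of binding, and counts per gene do not show which start was used.

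Counts assigned to genes came to 11934542 and 10263454 in the KD libraries and 4581593 and 10869534 in the KI libraries, so that 3 counts equal between 0.212 and 0.696 CPM (counts scaled to library size with TMM factors, which correct for unequal library composition). KI mouse 1 was the shallowest library, and 88.3% of its uniquely aligned reads fell in no gene, against 63.2% to 68.3% in the others. Mouse Gfi1 lay at 7.22 and 1.12 CPM in the KD mice and at 36.2 and 89.0 CPM in the KI mice. The cells were checked for 14 genes of the myeloid lineage and of leukocytes, immature and mature, which do not tell leukaemic from normal myeloid cells. All 14 were detected, at a summed level of 4961 and 5904 CPM in the KD mice and 3974 and 4788 CPM in the KI mice. Mpo, the myeloperoxidase of early granules, alone had 1397 and 2177 CPM in KD and 897 and 2040 CPM in KI. Across 13822 genes edgeR's quasi-likelihood test called 0 lower (0% of genes tested) and 0 higher (0%) in KD, although 1153 lower (8.34%) and 178 higher (1.29%) had an unadjusted p under 0.05. DESeq2 called 137 lower (0.991%) and 5 higher (0.0362%), and limma-voom 0 in either direction. Each library came from its own mouse, and a p-value here reflects the spread of these 4 mice and nothing wider.

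The 8 factors formed 2 groups of 4, with negative log2 fold changes (KD over KI) in 4 of them, as in 55.5% of all genes tested, and positive ones in the other 4, as in 44.5%. In Gata1, Klf1, Tal1 and Zfpm1 each KD mouse lay below each KI mouse, and in each case KD mouse 2 was far below KD mouse 1. The same order of the mice was found for 23.5% of all genes tested. In Gata2, Lmo2 and Lyl1 each KD mouse lay above each KI mouse, by small amounts, as were 14.5% of all genes tested, and the Nfe2 groups overlapped. The median log2 fold change of the 8 was -0.91, against -0.06 for all genes tested, and it stands for neither group. No factor passed edgeR's test adjusted over all genes. Unadjusted p was under 0.05 for 3 factors, Gata1, Klf1 and Zfpm1, all lower in KD, as it was for 8.34% of all genes tested in that direction. Gata1, Klf1 and Tal1 reached the level of the low-count filter in 3 libraries, all but KD mouse 2. The KD pair alone would not have kept them, so that the filter itself favoured a lower KD value for these factors.

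**Figure D1:**
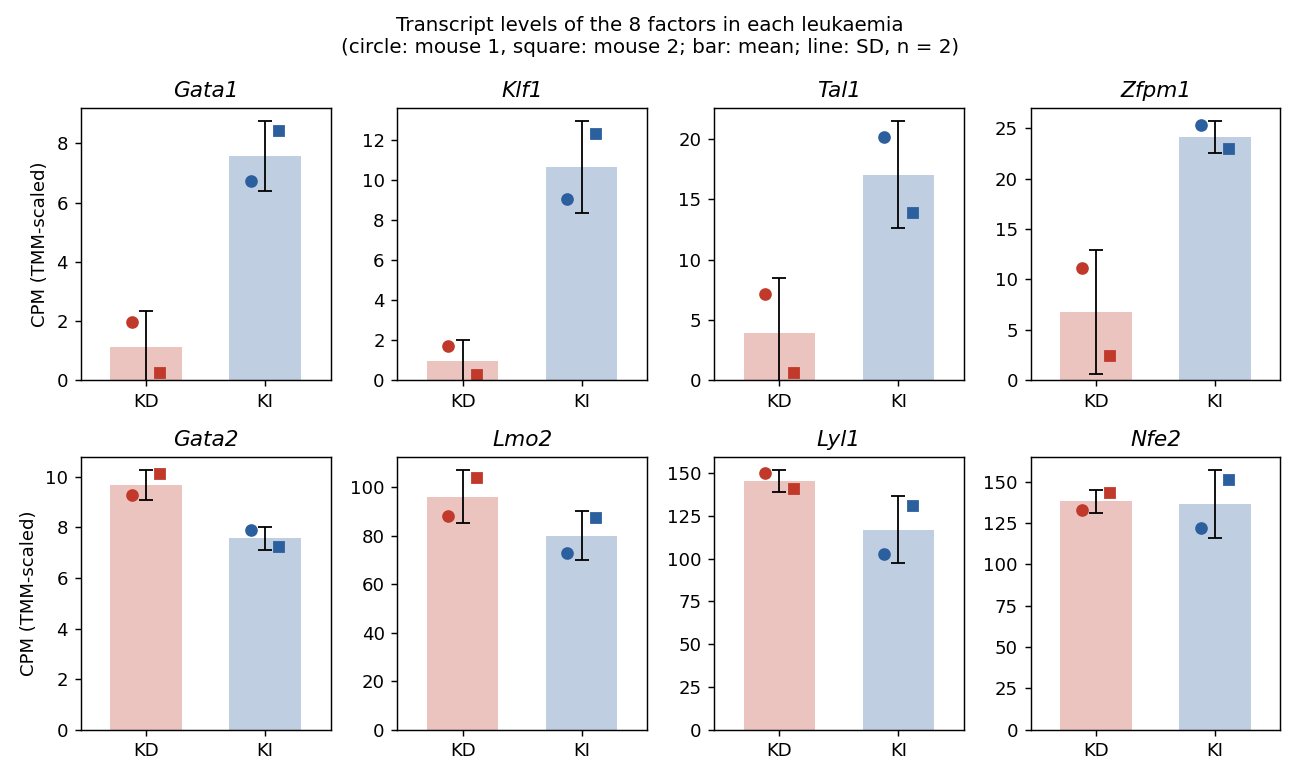
Level of each factor in CPM (y axis, linear from 0, a scale of its own in each panel) in KD leukaemia (red, left) and KI leukaemia (blue, right). Circles are mouse 1 and squares mouse 2 of each genotype, bars the mean of 2 mice and lines the SD, cut off at 0. In the upper row both KD mice lie below both KI mice, with KD mouse 2 below KD mouse 1, and in the lower row the genotypes lie within a short distance of each other.

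Gata1 (ENSMUSG00000031162, chromosome X, 7959260 to 7976663, GRCm38) lay at 1.98 and 0.259 CPM in the KD mice, on 28 and 3 counts, and at 6.73 and 8.42 CPM in the KI mice, on 29 and 71 counts. The means were 1.12 ± 1.22 CPM in KD and 7.57 ± 1.20 CPM in KI (SD, n = 2 each), a log2 fold change of -2.73 ± 1.01 (SE), with adjusted p = 0.518 in edgeR. The groups did not overlap, and the 3 counts in KD mouse 2 equal the upper limit that a count of 0 would allow. The log2 fold change was -4.70 without KD mouse 1 and -1.87 without KD mouse 2. GATA factors that blood cells do not use were at their highest in KI mouse 1. Gata4, a heart and gut factor, had 0.849 and 0.432 CPM in KD against 5.80 CPM in KI mouse 1 and 1.07 CPM in KI mouse 2. Gata6 had 0.0708 and 0.691 CPM in KD against 3.94 and 0.949 CPM in KI. The part of this in the Gata1 value of KI mouse 1 was not measured, and without that library Gata1 had a log2 fold change of -2.70. Xist, the RNA of the inactive X chromosome, had 0.425 and 846 CPM in the KD mice and 13 and 785 CPM in the KI mice. Gata1, on the same chromosome, was the lower in the KD mouse with high Xist and the higher in the KI mouse with high Xist. Ddx3y, a gene of the Y chromosome, had 1.27 and 0.0864 CPM in the KD mice and 77.5 and 0.237 CPM in the KI mice. It was thus high in KI mouse 1 alone, and KD mouse 1 was low in both Xist and Ddx3y. The part of sex in the values of the 8 factors was not tested.

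Gata2 (ENSMUSG00000015053, chromosome 6, 88193891 to 88207032) lay at 9.27 and 10.1 CPM in the KD mice and at 7.89 and 7.24 CPM in the KI mice. Both KD mice were above both KI mice, by a mean of 9.69 ± 0.593 CPM in KD against 7.56 ± 0.458 CPM in KI (SD, n = 2 each). The log2 fold change was 0.36 ± 0.44 (SE), smaller than its own error, with adjusted p = 0.923 in edgeR. Its sign was positive under every scaling tried.

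Zfpm1 (ENSMUSG00000049577, chromosome 8, 122281856 to 122337862), which encodes the GATA1 cofactor FOG1, lay at 11.1 and 2.42 CPM in the KD mice and at 25.3 and 23.0 CPM in the KI mice. The KI mice were close together and the KD mice were not. The means were 6.76 ± 6.14 CPM in KD and 24.1 ± 1.6 CPM in KI (SD, n = 2 each), with a log2 fold change of -1.83 ± 0.73 (SE) and adjusted p = 0.518 in edgeR. It was -3.21 without KD mouse 1 and -1.04 without KD mouse 2.

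The counts of the 2 GATA factors were set against each other within each library, which needs no scaling between libraries. The ratio of Gata1 to Gata2 counts was 0.214 (95% exact interval 0.137 to 0.323) in KD mouse 1 and 0.0256 (0.00521 to 0.0768) in KD mouse 2. It was 0.853 (0.501 to 1.44) in KI mouse 1 and 1.16 (0.815 to 1.67) in KI mouse 2. The intervals of the KD libraries lie below those of the KI libraries, and they cover counting error only, not the spread between mice. Because the transcripts differ in length, the ratio is not the ratio of molecules, and only its differences between libraries can be read. For Zfpm1 to Gata2 the ratios were 1.20 and 0.239 in the KD mice and 3.21 and 3.18 in the KI mice.

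Klf1 (ENSMUSG00000054191, chromosome 8, 84901982 to 84905291), the red cell factor, differed most of the 8. It lay at 1.70 and 0.259 CPM in the KD mice, on 24 and 3 counts, and at 9.04 and 12.3 CPM in the KI mice, on 39 and 104 counts. The means were 0.979 ± 1.02 CPM in KD and 10.7 ± 2.33 CPM in KI (SD, n = 2 each), and the groups did not overlap. The log2 fold change was -3.42 ± 0.95 (SE), with adjusted p = 0.518 in edgeR. Klf1 passed under 3 alternatives: DESeq2 (adjusted p = 0.0476), edgeR with no low-count filter (adjusted p = 0.0259) and edgeR without KI mouse 2 (adjusted p = 0.0272). The adjusted p ranged from 0.0259 to 1 over all alternatives, and without KI mouse 2 the fit called 4130 genes in all. The log2 fold change was -5.21 without KD mouse 1 and -2.59 without KD mouse 2.

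Tal1 (ENSMUSG00000028717, chromosome 4, 115056426 to 115071755), the basic helix-loop-helix factor of the complex, lay at 7.15 and 0.605 CPM in the KD mice, on 101 and 7 counts, and at 20.2 and 13.9 CPM in the KI mice, on 87 and 117 counts. KD mouse 1 held 11.8 times the level of KD mouse 2 (95% exact counting interval 5.53 to 30.1), the widest such gap of the 8 factors in either genotype. The means were 3.88 ± 4.63 CPM in KD and 17.0 ± 4.45 CPM in KI (SD, n = 2 each), with a log2 fold change of -2.12 ± 1.05 (SE) and adjusted p = 0.578 in edgeR. Leaving out KD mouse 1 gave -4.66, and leaving out KD mouse 2 gave -1.16.

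Lyl1 (ENSMUSG00000034041, chromosome 8, 84701423 to 84704716), the relative of Tal1 that can take its place in the complex, lay at 150 and 141 CPM in the KD mice and at 103 and 131 CPM in the KI mice. Both KD mice were above both KI mice, with a mean of 145 ± 6.46 CPM in KD and 117 ± 19.9 CPM in KI (SD, n = 2 each). The log2 fold change was 0.31 ± 0.28 (SE), with adjusted p = 0.843 in edgeR. The ratio of Tal1 to Lyl1 counts was 0.0477 (95% exact interval 0.0387 to 0.0582) in KD mouse 1 and 0.0043 (0.00172 to 0.00887) in KD mouse 2. It was 0.196 (0.154 to 0.247) in KI mouse 1 and 0.106 (0.0868 to 0.128) in KI mouse 2.

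Lmo2 (ENSMUSG00000032698, chromosome 2, 103957903 to 103981878), the bridging protein, lay at 88.4 and 104 CPM in the KD mice and at 73.1 and 87.2 CPM in the KI mice. The groups touched closely, at 88.4 CPM in KD mouse 1 and 87.2 CPM in KI mouse 2. The means were 96.1 ± 10.8 CPM in KD and 80.1 ± 10.0 CPM in KI (SD, n = 2 each), with a log2 fold change of 0.26 ± 0.27 (SE) and adjusted p = 0.893 in edgeR. The ratio of Klf1 to Lmo2 counts was 0.0192 and 0.0025 in the KD mice and 0.124 and 0.141 in the KI mice.

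Nfe2 (ENSMUSG00000058794, chromosome 15, 103248212 to 103258403), the factor of globin and platelet genes, lay at 133 and 143 CPM in the KD mice and at 122 and 151 CPM in the KI mice. Both KD values lay between the KI values. The means were 138 ± 7.22 CPM in KD and 137 ± 20.9 CPM in KI (SD, n = 2 each), with a log2 fold change of 0.01 ± 0.27 (SE) and adjusted p = 1 in edgeR. Its sign changed with the scaling, from -0.07 with upper quartile factors to 0.44 with library size alone, a setting that moved the median of all genes to 0.37. Relative to the median of all genes, Nfe2 lay at 0.08 with each of these scalings. On the same relative scale and with library size alone, Gata2, Lmo2 and Lyl1 lay at 0.41, 0.32 and 0.38, and Gata1, Klf1, Tal1 and Zfpm1 at -2.64, -3.32, -2.07 and -1.76.

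**Figure D2:**
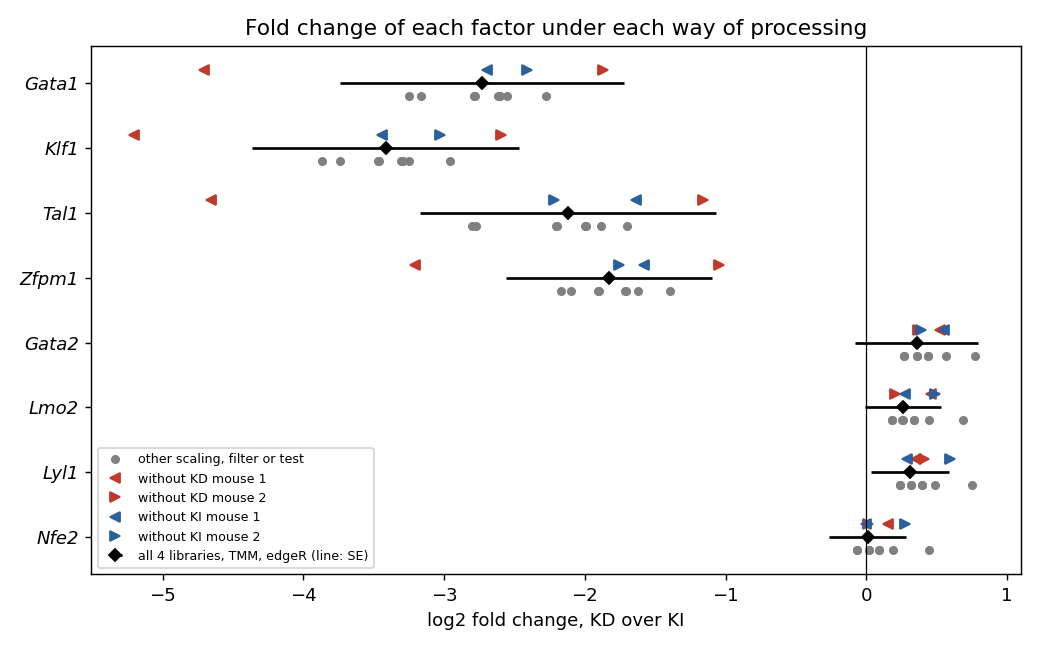
Log2 fold change of each factor, KD over KI (x axis), with all 4 libraries (black diamonds, line SE), under other scalings, filters and tests (grey circles) and without 1 mouse (triangles). Gata1, Klf1, Tal1 and Zfpm1 stay below 0 throughout and move furthest when KD mouse 1 is left out, Gata2, Lmo2 and Lyl1 stay above 0, and Nfe2 lies on both sides.

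The 4 factors with lower levels in KD also differed in the same direction between the KD mice. This contrast is not independent of their grouping, since the same values of KD mouse 2 enter both. How many of all genes tested had such a gap was not counted. KD mouse 1 had 7.64 times the Gata1 level of KD mouse 2 (95% exact counting interval 2.36 to 39.3), 6.55 times the Klf1 level (1.99 to 34.0) and 4.59 times the Zfpm1 level (3.06 to 7.13). Between the KI mice these factors differed less, at mouse 1 to mouse 2 ratios of 0.798 for Gata1, 0.733 for Klf1, 1.45 for Tal1 and 1.10 for Zfpm1. For Gata2, Lmo2, Lyl1 and Nfe2 the ratio of the KD mice lay between 0.853 and 1.06. Within KD mouse 1 the Tal1 to Gata1 ratio of counts was 3.61 (95% exact interval 2.35 to 5.70), within KD mouse 2 it was 2.33 (0.533 to 14.0), and in the KI mice it was 3 (1.95 to 4.74) and 1.65 (1.22 to 2.25). The interval in KD mouse 2 rests on 7 and 3 counts and holds all the other values. Likewise the ratio of Klf1 to Gata1 counts was 0.857 and 1.00 in the KD mice and 1.34 and 1.46 in the KI mice, with overlapping intervals in all 4 libraries.

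**Figure D3:**
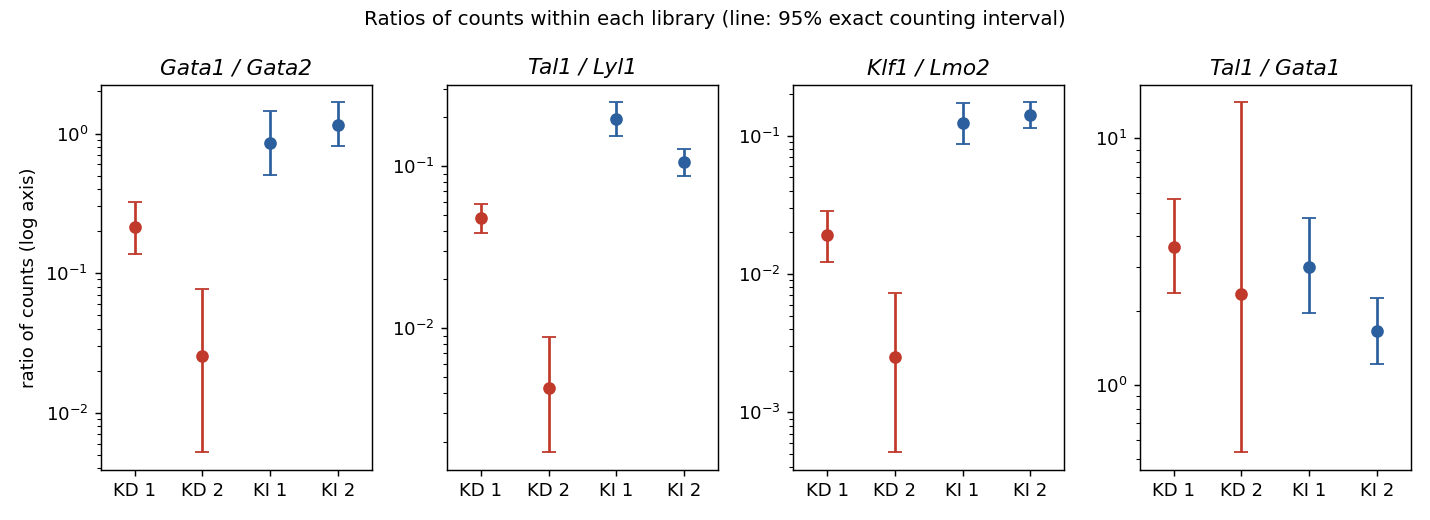
Ratios of counts between pairs of factors within each library (log y axis), for the KD mice (red, left) and the KI mice (blue, right), with 95% exact intervals for counting error. Gata1 over Gata2, Tal1 over Lyl1 and Klf1 over Lmo2 lie lower in both KD libraries, lowest in KD mouse 2, while the intervals of Tal1 over Gata1 overlap, except those of KD mouse 1 and KI mouse 2.

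Patterns over the 4 libraries were compared by the Euclidean distance between log2 CPM values, each gene centred on its own mean. The closest pair of factors was Lmo2 and Lyl1 (distance 0.242), and among the 4 that were lower in KD it was Gata1 and Klf1 (0.590). Distances between the groups ran from 2.66, for Nfe2 and Zfpm1, to 3.95, for Gata2 and Klf1. Among 9593 other named genes of at least 5 CPM on average, the nearest to Gata1 were Mfsd2b (0.211), which encodes a sphingosine 1-phosphate exporter of red cells and platelets, S100a9 (0.413), a neutrophil calcium-binding protein, and Mogat2 (0.429), an acyltransferase. Mfsd2b had 4.39 and 0.95 CPM in KD and 13.2 and 15.5 CPM in KI. The nearest to Klf1 was the septin gene Sept5 (0.121), to Tal1 the lipid kinase gene Pip5k1b (0.186) and to Zfpm1 the amino acid transporter gene Slc43a1 (0.198). The nearest to Gata2 was Mphosph9 (0.0371), to Lmo2 Pisd (0.0439), to Lyl1 Snx3 (0.0427) and to Nfe2 Tnpo3 (0.0126). A prior count of 3 in these values narrows the differences of genes with few counts, such as Gata1, more than those of abundant genes. The KD mice differed 7.64-fold in Gata1 by scaled counts, while S100a9 lay at 1173 and 411 CPM in them. With only 4 libraries many genes share a profile, and these distances describe likeness and carry no test.

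Genes for proteins that join the 8 factors in complexes did not share the lower levels of Gata1 and Klf1 as a list. Of 28 partner genes tested, 13 had a negative and 15 a positive fold change, with a median of 0.02. Both KD libraries were below both KI libraries for 6 of them and above for 5, shares near those of all genes tested (23.5% and 14.5%), and 0 passed in either direction. The 3 with the lowest p were Maff, a small MAF partner of NFE2 (log2 -3.42 ± 0.99, SE, at 0.566 and 0.173 CPM in KD against 5.80 and 2.61 CPM in KI), Erg, an ETS factor (-1.04 ± 0.37), and Tcf4, an E protein (0.77 ± 0.35). Erg lay at 15.1 and 23.0 CPM in KD and 32.9 and 45.6 CPM in KI. Ldb1, which links LMO2 to looped enhancers, lay at 65.4 and 68.9 CPM in KD and 62.9 and 116 CPM in KI, and Cbfa2t3, the corepressor ETO2 of the TAL1 complex, at 49.4 and 40.3 CPM in KD and 36.2 and 5.69 CPM in KI. The Ldb1 groups overlapped (log2 -0.42 ± 0.37, SE), and the KI mice differed widely in Cbfa2t3 (1.12 ± 0.81). Gfi1b, the relative of Gfi1 in red cell and platelet precursors, lay at 2.48 and 2.76 CPM in KD and 4.87 and 8.54 CPM in KI (log2 -1.36 ± 0.63, SE). Chd4, the ATPase of the NuRD complex that FOG1 binds, lay at 416 and 566 CPM in KD and 313 and 674 CPM in KI.

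Of 22 other regulators of these lineages 9 had a negative and 13 a positive fold change, with a median of 0.06 and 0 that passed. The lowest p belonged to Nfib, a nuclear factor I gene, at 0.991 and 1.81 CPM in KD against 16.5 CPM in KI mouse 1 and 2.37 CPM in KI mouse 2. Sox6, a repressor of embryonic globin genes, had 2.48 and 0.605 CPM in KD and 6.26 and 2.97 CPM in KI, and Nfe2l1 and Myb had log2 fold changes of 0.15 ± 0.26 and -0.32 ± 0.36 (SE). Among relatives of the 8 factors, 16 of 22 genes were tested, with 8 in each direction, a median of 0.13 and 0 that passed. Klf4, a monocyte factor, lay at 119 and 107 CPM in KD and 56.6 and 43.1 CPM in KI (log2 1.18 ± 0.29, SE), Klf11 at -1.29 ± 0.45 and Gata3 at -2.41 ± 1.00. Gata3 had 0.566 and 1.12 CPM in KD against 7.42 CPM in KI mouse 1 and 1.78 CPM in KI mouse 2. Klf4 and Klf1, of the same family, thus lay in opposite directions.

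Red cell genes that GATA1, TAL1 and KLF1 are known to bind were lower in KD, with the same split between the KD mice. Of the 34 tested, all 34 had a negative fold change, 31 had both KD libraries below both KI libraries (23.5% of all genes tested did), and 0 passed. Their median log2 fold change was -3.51. Their summed level was 411 and 212 CPM in the KD mice and 1412 and 1413 CPM in the KI mice, and the median gene lay at 4.53 and 0.432 CPM in KD and at 20.2 and 34.4 CPM in KI. The lowest p of the list belonged to the globin genes Hbb-y and Hba-x. Hbb-y had 0.142 and 0.0864 CPM in KD, on 2 and 1 counts, and 134 and 58.5 CPM in KI (adjusted p = 0.3 in edgeR). Hba-x had 2 and 2 counts in KD and 6.03 and 4.39 CPM in KI. Both passed the low-count filter through the KI libraries alone. Other genes of the list, such as Rhag and Alas2 with 1 count each in KD mouse 2, could not have passed on the KD pair alone. The filter itself thus favoured lower KD values in this list, and the share of all genes tested is not a like comparison. Cpox, an enzyme of haem synthesis, had 21.5 and 20.1 CPM in KD and 50.1 and 48.5 CPM in KI, without the gap between KD mice. Epor, the erythropoietin receptor, lay at 1.63 and 0 CPM in KD, on 23 and 0 counts, against 6.73 and 7.36 CPM in KI. In Epor, Kel, Car1 and Hba-a1, KD mouse 2 had 0 counts, which allows up to 0.259 CPM. Globin genes are near-identical copies in part, and their single values are uncertain because reads with several alignments were not assigned. In these bulk samples, fewer red cell precursors and less RNA per cell cannot be told apart.

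Of 22 platelet genes 12 were tested, 8 with a negative and 4 with a positive fold change and a median of -1.57. Both KD libraries were below both KI libraries for 3 of them (23.5% of all genes tested) and above for 0 (14.5%). Unadjusted p was under 0.05 for 4, all with lower values in KD (8.34% of all genes tested), and 0 passed. The levels differed widely between these genes, and the other 10 did not pass the low-count filter. Cd9, a tetraspanin of platelets and leukocytes, had 14.4 and 10.2 CPM in KD and 58.9 and 49.6 CPM in KI (log2 -2.14 ± 0.34, SE). Gp1bb and Gp5, of the von Willebrand factor receptor, were under 3 CPM in all libraries. Gp1bb had 5 and 3 counts in KD and 11 and 17 in KI, and Gp5 had 7 and 2 against 12 and 17. Both are among the 3 and the 4 genes counted above. They passed the low-count filter through the KI libraries alone, so that the filter itself favoured a lower KD value. Thbs1, thrombospondin 1 of platelet granules, had 40.4 and 24.3 CPM in KD, against 39.2 CPM in KI mouse 1 and 269 CPM in KI mouse 2 (log2 -2.25 ± 0.88, SE), with overlapping groups. Pf4 and Ppbp, defining platelet chemokines, had 25 and 2 counts and 5 and 1 counts in KD, and 4 and 3 counts and 3 and 1 counts in KI. Itga2b, a GATA1 target and platelet integrin subunit, lay at 25.5 and 2.68 CPM in KD and 13.0 and 6.29 CPM in KI, so that its groups overlapped.

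Of the progenitor and mast cell genes that GATA2 binds, 9 of 13 were tested, 4 negative and 5 positive, with a median of 0.03 and 0 that passed. Cd34 lay at 68.4 and 120 CPM in KD and 32.5 and 6.41 CPM in KI (log2 2.30 ± 0.78, SE), Kit at 34.1 and 27.0 CPM in KD and 55.2 and 52.7 CPM in KI (-0.82 ± 0.29) and Il1rl1 at -3.07 ± 0.57. Kit and Cd34, which both mark blood progenitors, thus lay in opposite directions, beside the small positive value of Gata2.

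**Figure D4:**
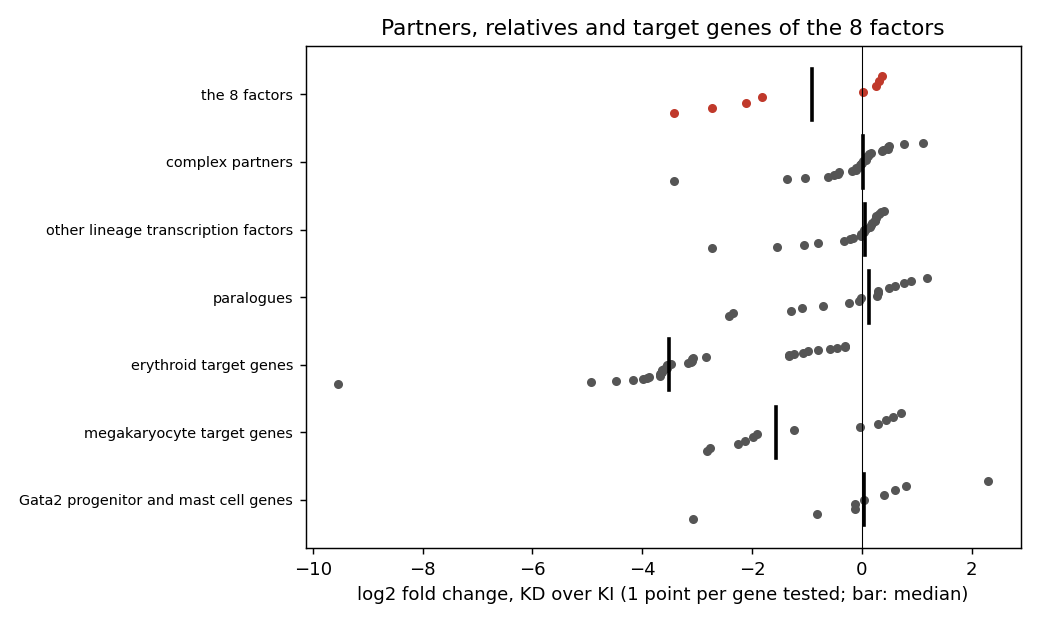
Log2 fold change, KD over KI (x axis), of each gene tested in the lists of partners, other regulators, relatives and target genes, with the 8 factors on top in red and the median of each list as a black bar. The red cell target genes lie left of 0, with a median of -3.51, and the lists of partners, other regulators and relatives are centred near 0.

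Other cells that use some of the 8 factors were followed by their markers. The 14 endothelial markers summed to 76.2 and 97.7 CPM in KD and 90.9 and 69.4 CPM in KI. Pecam1, which myeloid cells share, made up 54.2 and 80.8 CPM of this in KD and 35.3 and 36.8 CPM in KI, and Cdh5, the endothelial cadherin, had 1 and 3 counts in KD and 5 and 2 in KI. The 18 T cell markers summed to 19.7 and 32 CPM in KD and 123 and 83.9 CPM in KI, and 15 of the 16 tested were negative (55.5% of all genes tested). Both KD libraries were below both KI libraries for 8 of the 16 (23.5% of all genes tested). Cd3e alone made up 37.3 CPM of the sum in KI mouse 2, against 6.26 CPM in KI mouse 1. Lck and Cd8a were high in KI mouse 1 alone, at 17.9 and 9.28 CPM, against 1.90 and 1.54 CPM in KI mouse 2. Cd3g and Cd6 were above both KD mice in both KI mice. The T cell receptor genes Trac and Trbc1 had few counts, 7 and 2 and 9 and 3 in KI, and were not tested. The 12 B cell markers summed to 118 and 177 CPM in KD and 117 and 118 CPM in KI, and the 10 stroma markers to 20.5 and 21.4 CPM in KD and 77.9 and 15.1 CPM in KI. Markers of maturing neutrophils lay the same way as the group of Gata1: all 12 were negative (55.5% of all genes tested), 11 had both KD libraries below both KI libraries (23.5% of all genes tested), and their sum was 3610 and 1645 CPM in KD and 16326 and 17219 CPM in KI. The part of T cell and neutrophil markers in the values of the 8 factors was not tested. RefSeq places long noncoding genes over Gata1, Gata2, Tal1, Lmo2 and Zfpm1 and the end of Nfix over that of Lyl1. How the counting treated strand is not given in the sources used here, so reads of such overlaps cannot be told apart.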

How the data were processed

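RNA was measured in leukaemic cells of 2 KD and 2 KI mice from TruSeq Stranded mRNA libraries. The deposited values are raw counts per Ensembl gene, and the submitters' processing notes name HTSeq, DESeq, SAMtools and TopHat2 2.0.10, and the build GRCm38. Neither the strand setting nor the annotation release is stated there. Summary entries without a gene, 93.2% to 97.9% of a library's total, were dropped. Symbols were matched for 40254 of 41214 genes.

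The counts were analysed in R 4.3.3 with edgeR 4.0.16: filterByExpr by genotype (minimum count 10, 13822 genes kept), TMM factors, the quasi-likelihood test (glmQLFit, glmQLFTest) on genotype alone, and adjustment by Benjamini-Hochberg over all genes at 0.05. The SE of a log2 fold change is its size over the square root of the F statistic. The fit was tested on simulated data. Alternatives were other scalings and filters, DESeq2 1.42.0, limma-voom (limma 3.58.1), the replicate number as a block, and leaving out each library. Leave-one-out fits reran the filter. Ratios of counts have 95% Clopper-Pearson intervals, and intervals and floors (3 counts) cover counting error only. With 2 mice against 2 an exact permutation test cannot go below 0.333, so none was used. Levels were not compared between genes, since no transcript lengths were used.

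The 8 factors and the lists were chosen with earlier results of these data known. Besides the 8 factors and Gfi1, the genes named are from the 3 of each list with the lowest p, those needed to account for a list, and those with the nearest pattern (log2 CPM, prior count 3, mean of at least 5 CPM). List counts leave out the 8 factors. The 8 chromatin libraries are not analysed here: 1616 columns of the binned tables carry only bin positions and match no sample.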

Additional observations from a re-analysis of the deposited data

How the results depend on the processing

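Gata1, Klf1, Tal1 and Zfpm1 kept a negative and Gata2, Lmo2 and Lyl1 a positive log2 fold change in each of the 12 alternatives. Nfe2 turned to -0.07 with upper quartile scaling, to -0.07 with at least 5 CPM in 2 libraries and to -0.0017 without KI mouse 1, with a highest leave-one-out value of 0.27. The number of genes called was 169 with no low-count filter (140 lower, 29 higher), 142 with DESeq2 and 14 to 4130 without 1 library, against 0. A fit without 1 library leaves a lone mouse in 1 genotype, assumed to vary like the other. The median of the 8 factors ran from -1.53 to -0.51 without 1 library. Without KI mouse 2, 46.2% of genes tested had the KD libraries below the remaining KI library. The share higher in KD among genes with unadjusted p under 0.05 was 13.4% under TMM, 20.4% under RLE, 9.33% under upper quartile and 77.2% under library size alone.

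The labels do not say that a replicate number marks a shared litter or day, and the deviations of same-numbered libraries correlated at 0.249 across genes. A fit with replicate as a block called 7 genes, none of them among the 8 factors, and gave -3.74 for Klf1, -3.16 for Gata1, -2.80 for Tal1 and -2.17 for Zfpm1.

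The low counts of Gata1, Klf1 and Tal1 in KD mouse 2, 3, 3 and 7, limit how far below KI these factors can be placed.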
